A study of Mus musculus with 24 samples.

Results

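The genes described here encode the proteins of the cytosolic ribosome. Rows of the count table were taken whose mouse symbol has the form Rpl or Rps with a number, together with Rplp0, Rplp1, Rplp2 and Rpsa. Of 56750 rows, 89 had such a symbol, and 85 of them averaged at least 1 CPM, the read count scaled to the size of the library. These 85 rows hold 49 names of the large (60S) subunit and 36 of the small (40S) subunit. By annotation 80 are protein-coding and 5 are processed pseudogenes (Rpl6l, Rps12l1, Rps3a2, Rps3a3 and Rps4l). The 4 rows below the limit were Rpl3l, Rpl10l, Rpl32l and Rpl39l. Rpl10l had 0 counts in all 24 libraries, where the limit that a count of 0 allows was 0.0585 to 0.0891 CPM per library, and the other 3 had 56 to 198 counts over all libraries together.

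RNA was sequenced from the medial prefrontal cortex of mice that all carry the label 5xFAD, a transgenic Alzheimer's disease model that carries human APP driven by the neuronal Thy1 promoter. The 6 groups of 4 libraries are SI_EE (socially isolated mice given the enriched environment), GH_EE (the same treatment in the GH housing), SI_WT and GH_WT (an arm called WT in both housings), SI_Con (isolated mice with no further treatment) and GH_Con (the control). The sources used here do not spell out GH, nor what WT stands for where the genotype label is 5xFAD throughout, and neither age nor sex is labelled. All libraries carry 1 batch date. Nothing says whether the libraries of a group came from separate mice, and the p-values below then speak only of the scatter among these libraries, which may be technical. The human APP row was read in all 24 libraries, at 337 to 3700 CPM in SI_EE, 1796 to 3834 in GH_EE, 2198 to 4683 in SI_WT, 2344 to 3450 in GH_WT, 1041 to 2726 in SI_Con and 1500 to 3734 in GH_Con. The WT arm thus held it too, and the level varied widely within groups.

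A ribosome is built from ribosomal RNA and a single copy of most of these proteins, so cells make the proteins in matched amounts. The mRNAs are short, abundant and mostly begin with a run of pyrimidines, the 5′ terminal oligopyrimidine (TOP) sequence, through which mTOR signalling controls their translation. In the cortex neurons use ribosomes both in the cell body and near synapses, and several of the proteins, such as Rpl5 and Rpl11, also act outside the ribosome on the p53 pathway.

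Total counts per library ran from 33683587 to 51274917. Shares of reads and medians over the 85 rows are given with and without 4 libraries. These 4 (GH_Con 2, SI_Con 2, SI_Con 3 and SI_WT 4) had lower counts of long genes. The measure of this was the Spearman correlation, across 15404 genes, of each gene's deviation from its own mean log2 CPM with its transcript length. It was -0.36 in GH_Con 2, -0.41 in SI_Con 3, -0.47 in SI_Con 2 and -0.51 in SI_WT 4, and -0.15 to 0.35 in the other 20. SI_EE 1, GH_WT 2 and GH_WT 4 stood apart in markers of thalamus and habenula, and further libraries in other tissue markers. The 6 markers of thalamus and habenula summed to 481 CPM in SI_EE 1, 173 CPM in GH_WT 2 and 297 CPM in GH_WT 4, against 16.5 to 66.7 CPM in the other 21 libraries. In SI_EE 1 the 6 cerebellar markers summed to 3654 CPM, against 11.1 to 32.2 CPM in the other 23 libraries, and the 7 cortical pyramidal markers to 728.5 CPM, against 1047 to 2019 CPM. The choroid plexus markers summed to 1085 CPM in SI_Con 4, 571 CPM in SI_EE 3 and 361 CPM in GH_WT 2. They reached at most 87.4 CPM in the other libraries. Blood markers were highest in GH_Con 4, at 188 CPM, and striatal markers were low in SI_EE 1 (124 CPM) and GH_WT 1 (179 CPM). SI_Con 4 is among the SI_Con libraries kept when the 4 are left out. In bulk tissue, fewer cells of a type and less RNA per cell cannot be told apart.

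The share of reads taken by ribosomal protein mRNAs ran from 0.936% to 1.70% within the SI_WT group alone, a wider span than that of the 6 group means. The 85 rows held 1.31%, 1.02%, 0.866% and 0.878% of the reads in SI_EE libraries 1 to 4. The GH_EE libraries held 0.869%, 1.001%, 0.911% and 0.950%. SI_WT libraries held 0.938%, 1.06%, 0.936% and 1.70%, the last being the highest of all. GH_WT libraries held 1.09%, 0.905%, 0.967% and 0.960%. SI_Con libraries held 0.930%, 1.38%, 1.52% and 0.975%, so that a pair of them lay far above the other pair. GH_Con libraries held 1.02%, 1.31%, 1.01% and 1.01%. Counting error is small beside these differences: the exact 95% interval of the lowest share, in SI_EE 3, was 0.863% to 0.869%, and such intervals cover counting error only.

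Group means were 1.02% ± 0.206 in SI_EE, 0.933% ± 0.0563 in GH_EE, 1.16% ± 0.365 in SI_WT, 0.981% ± 0.0790 in GH_WT, 1.20% ± 0.292 in SI_Con and 1.09% ± 0.146 in GH_Con (SD, n = 4 each). The ranges of all 6 groups overlapped, except that the lowest GH_Con library, at 1.014%, lay above the highest GH_EE library, at 1.001%. With the 4 low-long-gene libraries left out, the means were 0.979% in SI_WT (n = 3), 0.953% in SI_Con (n = 2) and 1.02% in GH_Con (n = 3).

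The share followed the length measure closely. The 5 libraries with the highest shares, 1.31% to 1.70%, were the 5 with the lowest length correlation, from -0.51 to -0.15. The other 19 held 0.866% to 1.09%, with length correlations of -0.07 to 0.35. Both quantities come from the same counts, and ribosomal protein transcripts are short. What moved them together was not tested.

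**Figure D1:**
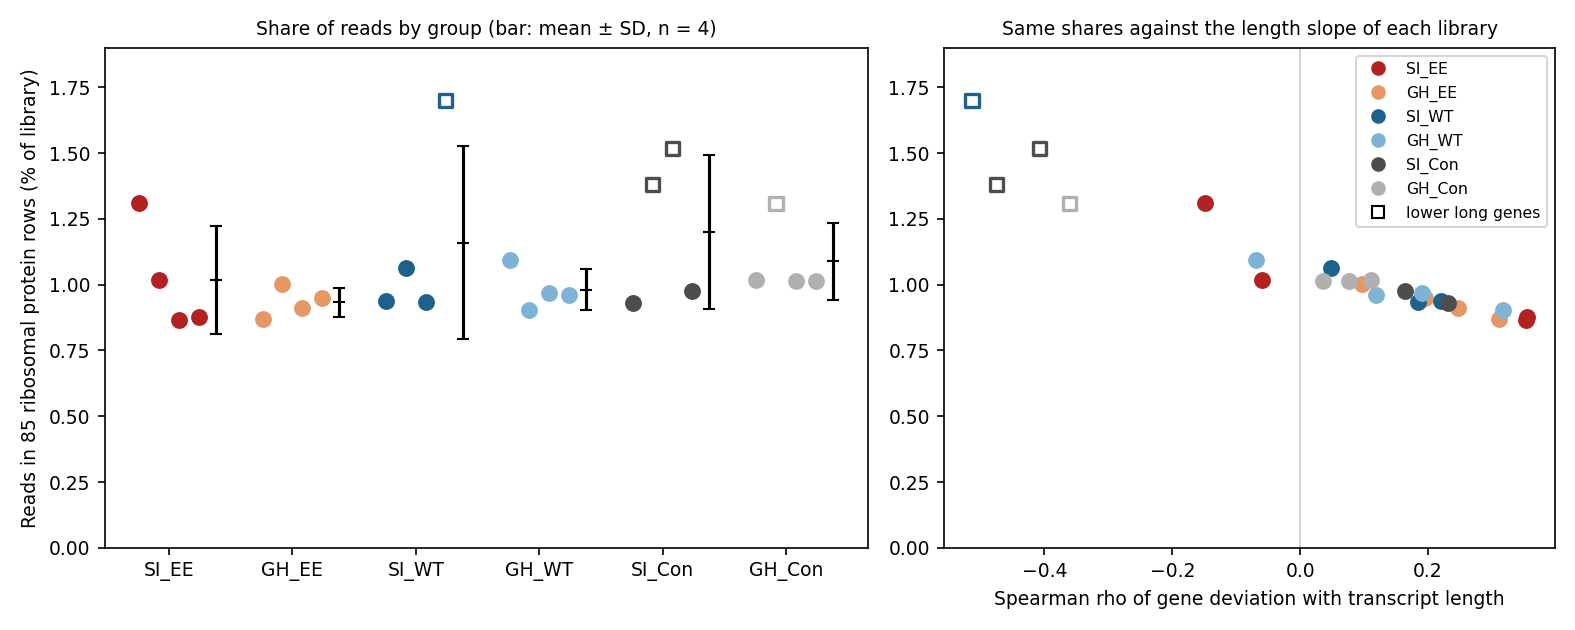
Left: percent of each library's reads in the 85 ribosomal protein rows by group, with the mean and SD of 4 libraries as a bar. Right: the same percent against the library's Spearman correlation of gene deviation with transcript length. Open squares are the 4 libraries with lower long genes, which sit between 1.31% and 1.70% at the left end of the right panel.

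Nearly all rows moved as a block. In SI_WT 4 all 85 rows were above their own median over the 24 libraries, in SI_Con 3 84, and in SI_EE 1 and SI_Con 2 81 each. In SI_EE 3 only 1 row was above its median, and in SI_EE 4 and GH_EE 1 it was 2 each. SI_WT 4 was the highest library for 65 of the 85 rows and SI_Con 3 for 13 more. SI_EE 3 was the lowest library for 22 rows. The range of log2 CPM over the 24 libraries lay between 0.8 and 1.5 for 71 rows, with a median of 1.10. Such counts are not given for all genes or for other short genes, so the block is not shown to be particular to these rows.

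**Figure D2:**
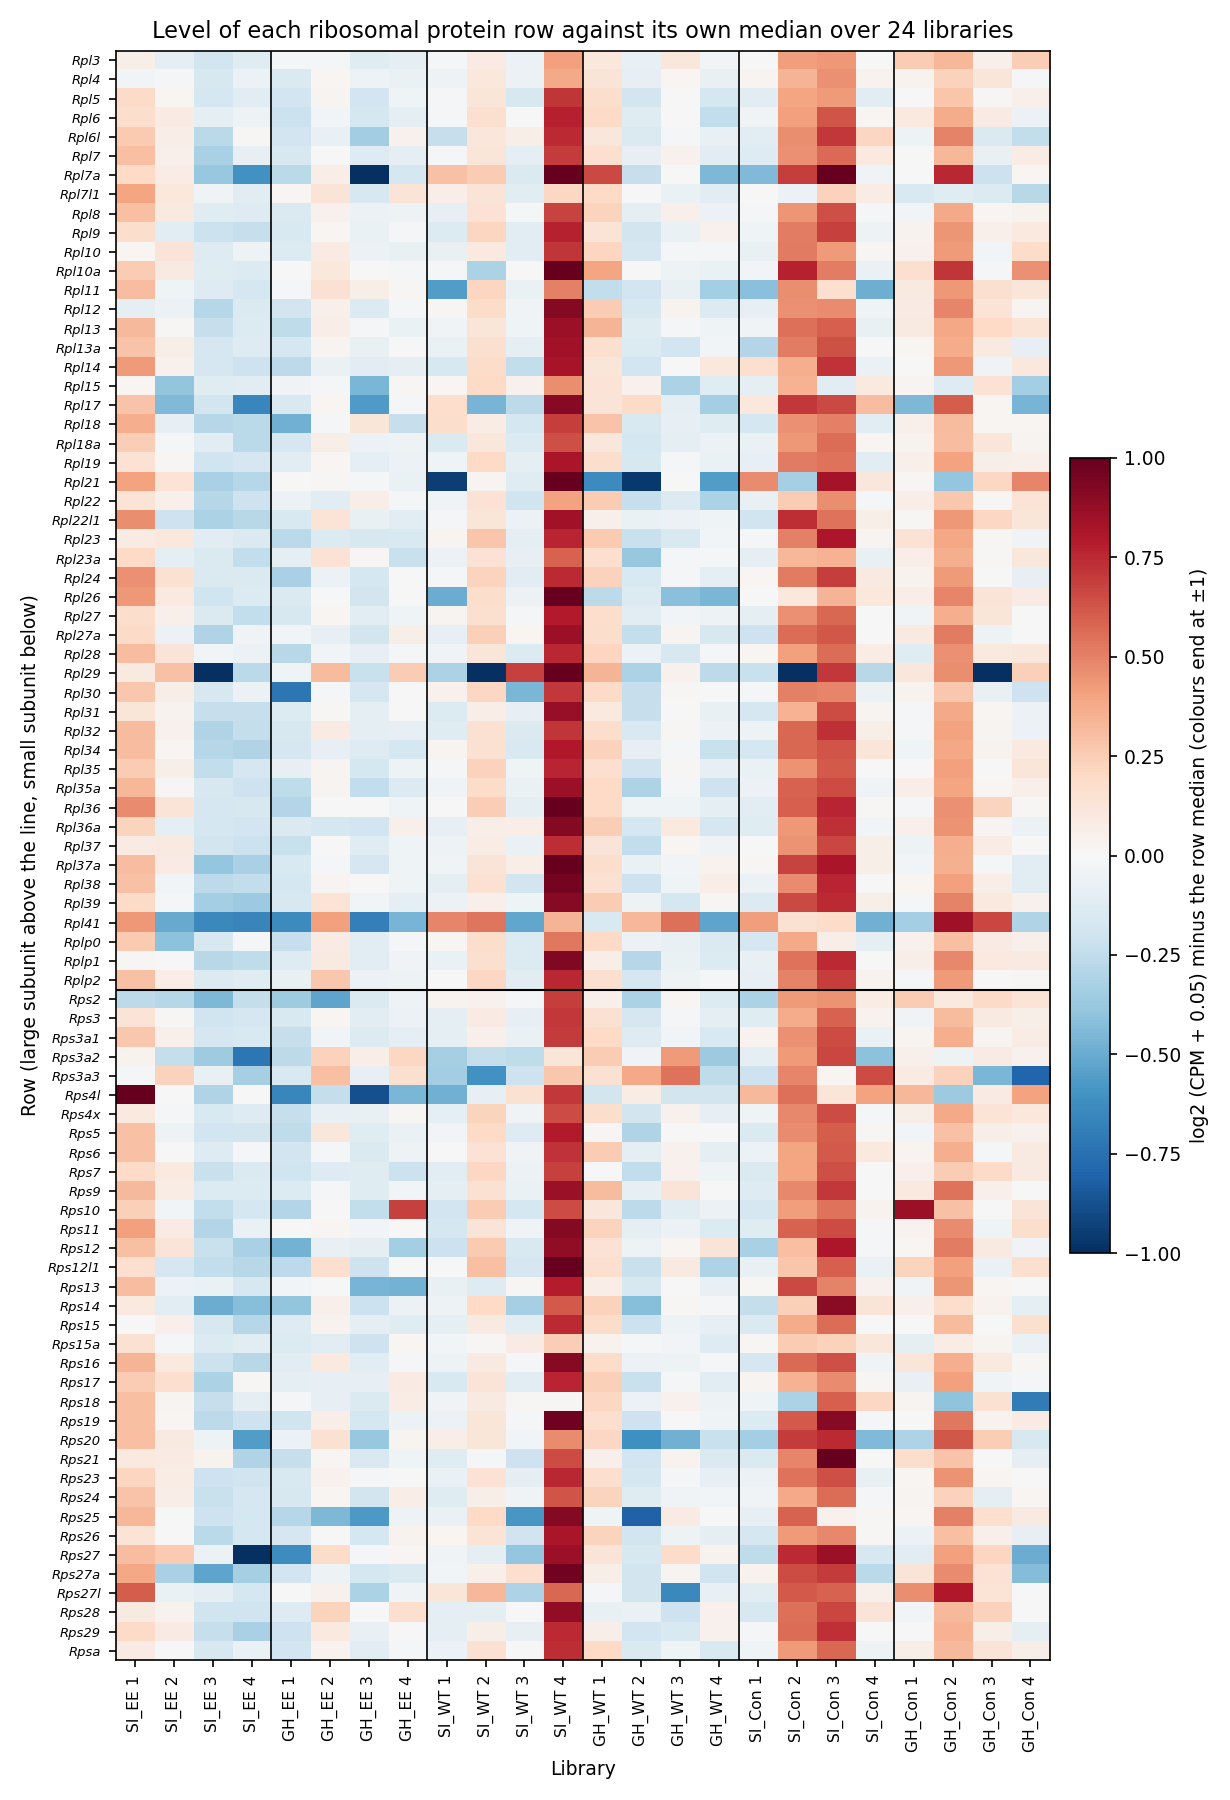
Each of 84 of the 85 rows (large subunit above the line, small subunit below) in each of the 24 libraries, as log2 (CPM + 0.05) minus the row's median. The columns SI_WT 4, SI_Con 2, SI_Con 3 and GH_Con 2 are high for most rows, while single cells such as Rpl29 in SI_EE 3 leave the common pattern.

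Levels of different rows can be compared only per transcript length, here CPM per kilobase of the shortest transcript that the annotation marks as principal (the shortest of all where none is marked). The median of the 85 rows was 152.5 CPM per kilobase. The highest were Rps15, a protein near the decoding centre, at 538.5, Rplp1, an acidic protein of the stalk that recruits translation factors, at 485, and Rps29, a small zinc-binding protein of the small subunit, at 445. The lowest were Rps3a3 at 2.42 and Rps3a2 at 4.88, both processed pseudogenes of Rps3a1, and Rps27l, a paralogue of Rps27 known as a p53 target, at 15.0. Their parent rows were far higher per kilobase: Rps3a1 at 276 and Rps27 at 201. Among the other paralogues, Rpl7l1 reached 29.6 CPM per kilobase, against 151 for Rpl7, and Rpl22l1 69.0, against 164 for Rpl22. Rps4l stood at 15.0, against 191 for the X-linked Rps4x.

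The narrowest rows over the 24 libraries were Rps15a, with a range of 0.46 in log2 CPM, and Rpl3 and Rpl4, each with 0.62. Rps15a, a small-subunit protein, ran from 97.1 CPM in GH_EE 3 to 134 CPM in SI_Con 2. Rpl3, which lies near the peptidyl transferase centre, and Rpl4, which lines the exit tunnel, are among the longer proteins of the set. The widest rows were Rpl29 at 6.39, Rps27 at 2.30 and Rpl7a at 2.27.

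Rpl29, a protein of the large subunit that is not essential in mice, was almost unread in 4 libraries of 4 different groups. It had 0.979 CPM in SI_EE 3 (37 counts), 1.62 CPM in SI_WT 2 (59 counts), 1.80 CPM in SI_Con 2 (68 counts) and 1.34 CPM in GH_Con 3 (47 counts). In the other 20 libraries it ran from 32.7 CPM in GH_WT 2 to 86.3 CPM in SI_WT 4, with a median of 43.8 CPM, so no library lay between 1.80 and 32.7 CPM. The largest gap between neighbouring libraries, with at least 3 libraries on each side, was 3.86 on the log2 (CPM + 0.5) scale. This ranked 18 among 15574 genes averaging at least 1 CPM, and the next ribosomal protein row, Rpl7a, ranked 1118 with a gap of 0.36.

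Rpl29 lies at chr9:106429454-106431568 (plus strand, mm10). Its reads can be shared with processed copies: 5 pseudogenes with a mean of at least 1 CPM share 100 or more of its 50-base stretches. The most read of them, Gm6344 at chr13:55085777-55086259, was named after its values were seen. A stretch of both reading frames is shown because it holds all the bases by which they differ, in capitals (bases 295 to 460 of 483, counted from the A of the start codon, GENCODE M21 transcripts).
Rpl29: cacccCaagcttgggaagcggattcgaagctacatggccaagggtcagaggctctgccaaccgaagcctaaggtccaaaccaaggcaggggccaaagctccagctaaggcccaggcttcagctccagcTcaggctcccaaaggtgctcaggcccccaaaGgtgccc
Gm6344: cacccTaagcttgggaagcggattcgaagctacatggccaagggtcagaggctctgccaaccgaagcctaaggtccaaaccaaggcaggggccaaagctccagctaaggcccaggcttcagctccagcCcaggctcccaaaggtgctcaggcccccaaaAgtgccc
The differences are C300T, T423C and G454A, with the base of Rpl29 first, and the frames are 99.4% identical. Gm6344 had 32.9, 45.0, 56.7 and 43.9 CPM in the SI_EE 3, SI_WT 2, SI_Con 2 and GH_Con 3 libraries where Rpl29 was low, and 32.9 to 70.8 CPM over all 24. The 5 copies summed to 51.1 to 105.9 CPM over all libraries. The copies were thus read in every library, also where Rpl29 itself was low.

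Rps27, a small-subunit protein with a zinc finger, shares its reading frame with Rps27rt, a retrotransposed copy annotated as protein-coding at chr9:114982366-114982739 (minus strand), which was named after its values were seen. Rps27 itself lies at chr3:90212522-90213651 (minus strand). The frame of 255 bases is printed once, because no base differs between the copies.
Rps27 and Rps27rt: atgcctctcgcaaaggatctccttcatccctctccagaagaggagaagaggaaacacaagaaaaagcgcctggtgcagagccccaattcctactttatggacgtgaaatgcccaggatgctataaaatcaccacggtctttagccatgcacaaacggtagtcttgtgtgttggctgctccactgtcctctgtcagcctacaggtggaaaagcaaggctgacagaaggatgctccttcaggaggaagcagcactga
The identity goes on for 32 bases before and 54 bases after the frame in the annotated transcripts, so reads from most of either transcript cannot be told apart by sequence. The bases around the annotated starts do differ. They are shown from 60 before to 20 after the start (RefSeq, GRCm38.p6, all on the minus strand), with Rps6, the small-subunit protein phosphorylated by S6 kinase, for comparison. Capitals mark a run of pyrimidines whose first base is a C, which follows a purine and is followed by at least 4 more pyrimidines, and which begins within 10 bases of the start. Where a window holds several such runs, the one nearest to the start is marked, and runs that begin with T are not counted.
Rps27 promoter, chr3:90213629-90213708: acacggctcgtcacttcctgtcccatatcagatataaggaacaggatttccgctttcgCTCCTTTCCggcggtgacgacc
Rps27rt promoter, chr9:114982720-114982799: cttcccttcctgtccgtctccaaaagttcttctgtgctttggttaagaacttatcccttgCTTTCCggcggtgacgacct
Rps6 promoter, chr4:86857348-86857427: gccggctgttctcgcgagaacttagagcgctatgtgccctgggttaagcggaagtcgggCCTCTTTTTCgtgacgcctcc
All 3 starts hold such a run. It was found, on the gene's strand, for 27 of the 60 rows with a promoter entry, and in 38% of their 71 entries, against 22.9% of all 32851 promoter entries. The motif CCGGAA, which ETS factors bind, stood on either strand of the same 80 bases in 26.8% of the 71 entries, against 7.2% of all. These are descriptions of the letters, and promoter entries were matched by symbol.

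Rps27 and Rps27rt split their reads differently from library to library. Rps27rt took 11.4%, 10.9%, 13.2% and 65.0% of the pair's reads in SI_EE libraries 1 to 4, and 44.1%, 16.2%, 15.1% and 26.4% in GH_EE libraries. In SI_EE 4 Rps27 had 23.9 CPM and Rps27rt 44.3 CPM, while in SI_EE 3 Rps27 had 62.7 CPM and Rps27rt 9.52 CPM. The sum was far steadier, at 68.2 and 72.2 CPM in those libraries. Over all 24 libraries the sum ran from 68.2 CPM to 133 CPM in SI_Con 3, while Rps27 alone ran from 23.9 to 118 CPM. The Rps27 row by itself is therefore uncertain as a measure of the mRNA.

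Rpl41, the shortest ribosomal protein, with a frame of 78 bases, was read at 96.3 to 139 CPM in 12 libraries and at 173 to 279 CPM in the other 12. Both levels occurred in every group: the higher one was seen in 1 SI_EE, 1 GH_EE, 3 SI_WT, 2 GH_WT, 3 SI_Con and 2 GH_Con libraries. The gene lies at chr10:128548114-128549305 (minus strand), and its frame is the same base for base in Gm10076 and Gm10736, both named after their values were seen.
Rpl41, Gm10076 and Gm10736: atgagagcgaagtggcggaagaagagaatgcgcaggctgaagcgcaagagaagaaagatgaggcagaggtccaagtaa
Gm10076 had 1.86 to 15.8 CPM and Gm10736 0.628 to 10.7 CPM over the 24 libraries.

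**Figure D3:**
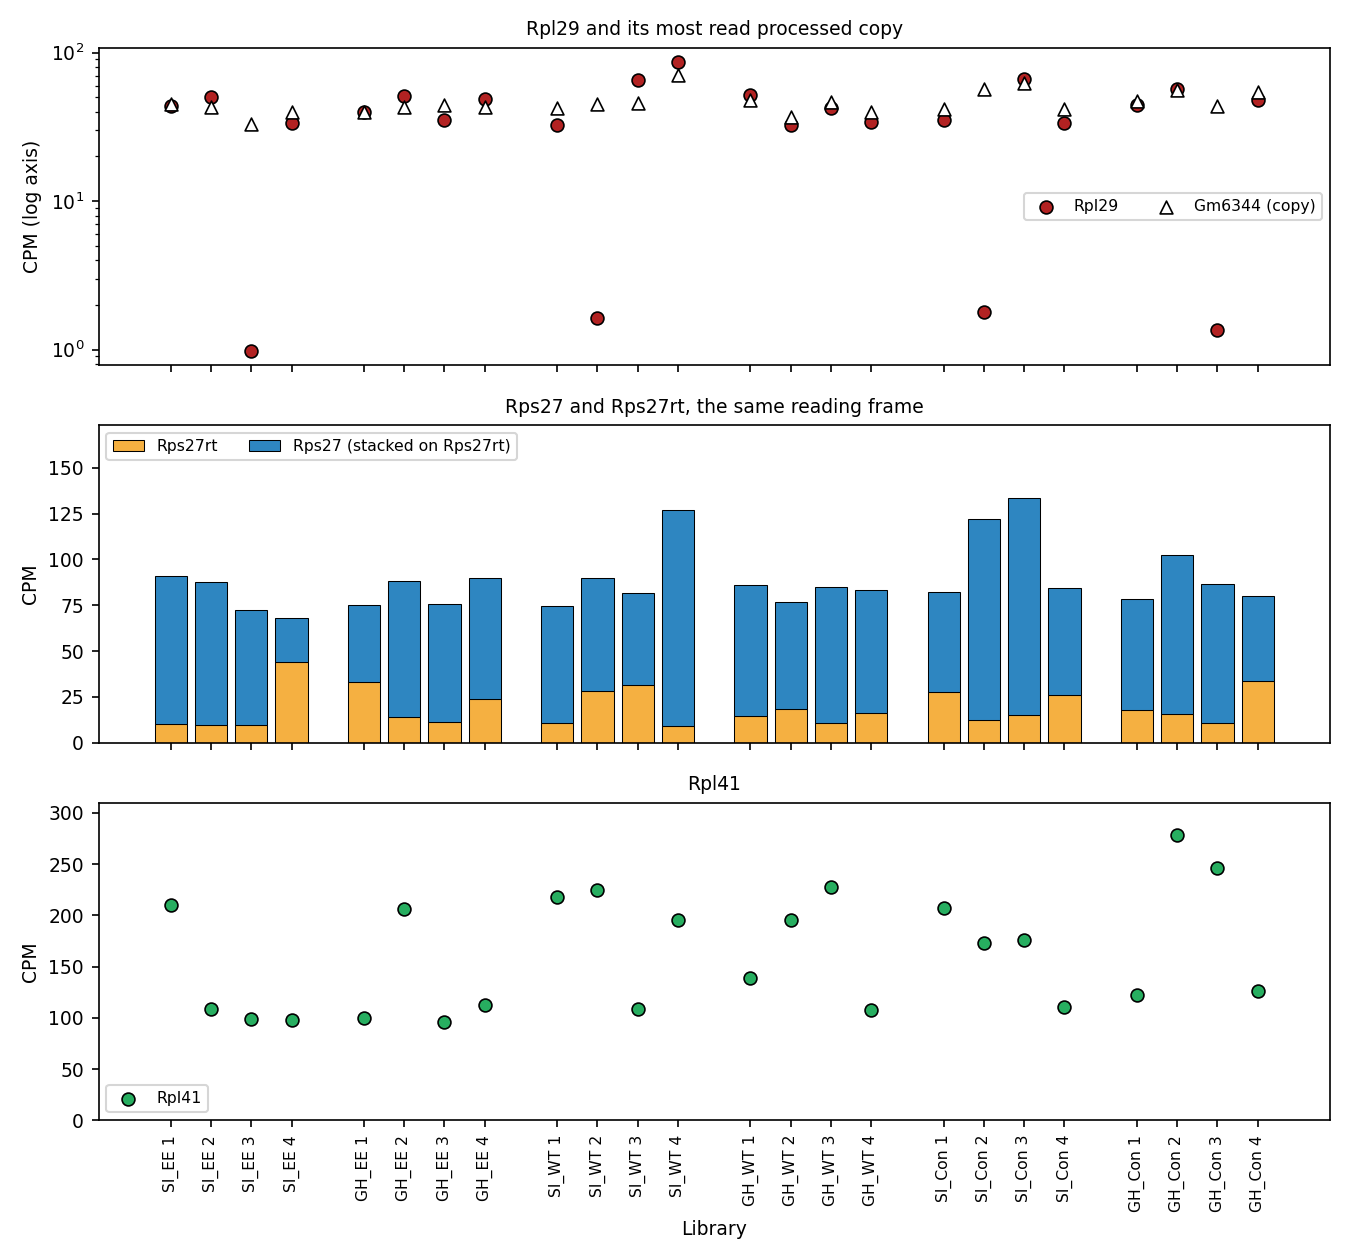
CPM by library. Top: Rpl29 and its copy Gm6344 on a log axis, with Rpl29 near 1 to 2 CPM in 4 libraries. Middle: Rps27 stacked on Rps27rt, where the parts change and the total changes less. Bottom: Rpl41, with 12 libraries at 139 CPM or below and 12 at 173 CPM or above.

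Copies were common. With the same criteria, 70 of the 85 rows had at least 1 further copy with a mean of 1 CPM or more. Rps27 and Rpl41 are not among the 70, although the copies named above share their frames. Rows outside the 70 are therefore not known to be free of copies. For Rpl21 the 13 such copies summed to a mean of 201 CPM, against 30.3 CPM for the Rpl21 row itself, and for Rpl7a 12 copies summed to 158 CPM, against 56.6 CPM. Values of these rows, and of Rpl17 and Rps2, are uncertain, because the counting rule for reads that fit several places is not given in the sources used here.

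Between groups, no ribosomal protein row passed an adjusted p of 0.05 in any of the 10 contrasts (edgeR quasi-likelihood test over 20354 genes, Benjamini-Hochberg). DESeq2 and limma-voom also called 0. Among all genes 0% were called in 8 contrasts, and 0.00491% (1 gene) in GH_EE against GH_Con and in SI_EE against GH_EE. Contrasts that share a group of libraries (SI_Con, for example, is in SI_EE against SI_Con and in SI_Con against GH_Con) are not independent of each other, and their values are given side by side only.

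**Figure D4:**
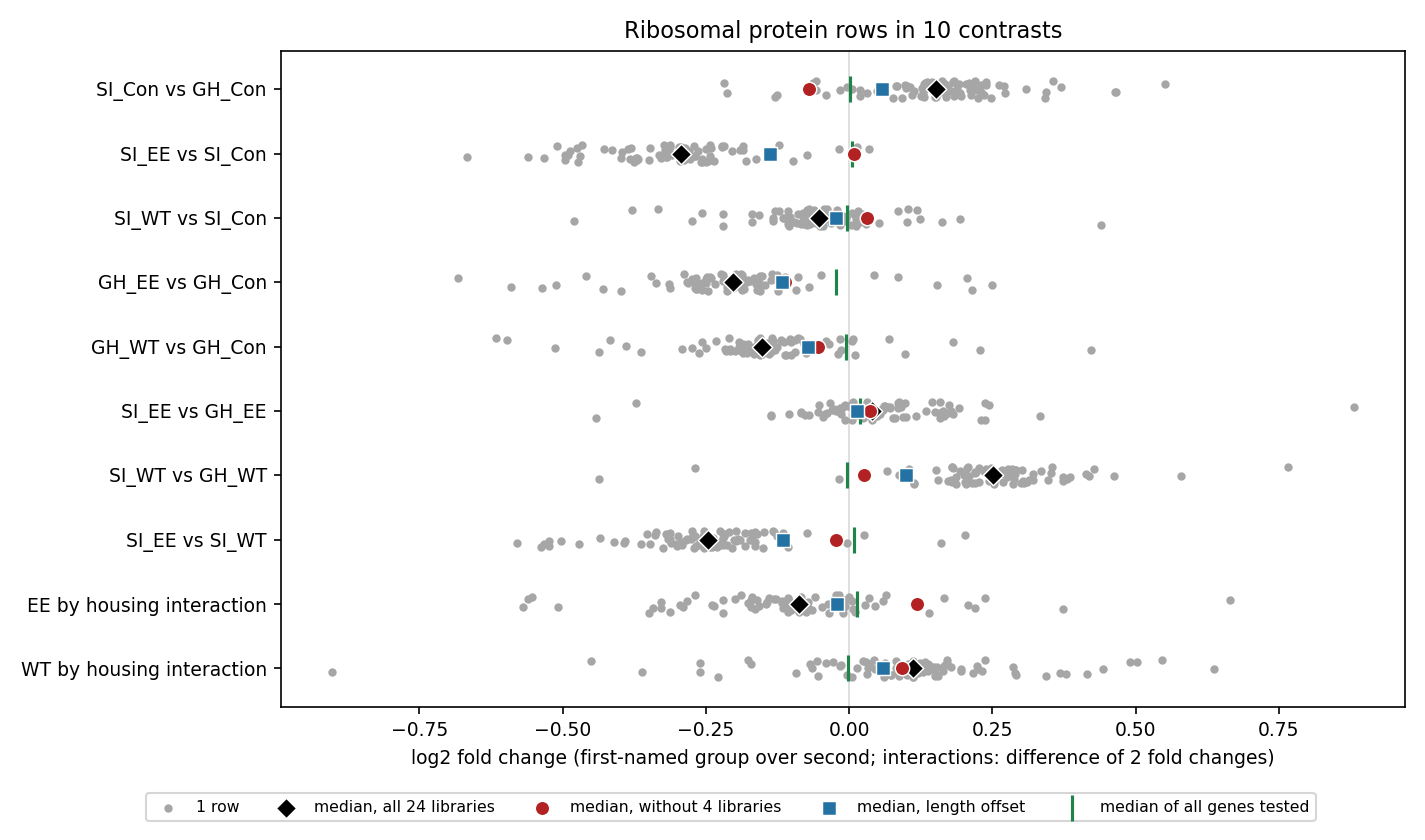
log2 fold changes of the 85 rows in 10 contrasts (grey points), with their median over all 24 libraries (black diamonds), without the 4 libraries with lower long genes (red circles) and with a transcript length offset (blue squares). Green ticks are the median of all 20354 genes. The median of SI_EE against SI_Con is -0.29 with all libraries and 0.01 without the 4.

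Almost all rows were lower in isolated mice given the enriched environment than in isolated controls, none past the adjusted threshold. In SI_EE against SI_Con 83 of 85 rows had a log2 fold change below 0, against 49.3% of all genes, and 2 above, against 50.7%, with a median of -0.29, and of 0.01 for all genes. At an unadjusted p under 0.05, 18 rows were lower and 0 higher, against 5.56% and 7.03% of all genes. Rps2, a protein at the mRNA entry of the small subunit, had 133, 130.5, 117 and 135 CPM in SI_EE, against 128, 214, 217 and 167 CPM in SI_Con. Its log2 fold change of -0.50 (SE 0.16) was the one with the smallest p in this contrast (edgeR adjusted p = 0.22). The SI_Con libraries 2 and 3 were the high ones, and SI_Con 1 lay within the SI_EE range.

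Rpl4 had 410.1, 413, 374 and 401 CPM in SI_EE, against 426, 530.2, 575 and 429 CPM in SI_Con, a log2 fold change of -0.29 (SE 0.11, edgeR adjusted p = 0.27). It was the only row of the 85 whose libraries did not overlap between these groups, against 2.4% of all genes lower without overlap, and 0 rows were higher, against 2.24%. Rpl3 differed by -0.31 (SE 0.12). Of the 2 rows above 0, Rpl7l1 differed by 0.03 (SE 0.11) and Rpl11 by 0.01 (SE 0.19). The 49 large-subunit rows and the 36 small-subunit rows each had a median of -0.29. Without the 4 libraries with lower long genes, which leaves SI_Con 1 and 4, the median turned to 0.01 with 46 rows above 0. The median over all genes was 0.03 in that fit. Rps2 differed by -0.20, Rpl4 by -0.11 and Rpl3 by -0.09. With SI_EE 1, the library with cerebellar markers, left out as well, the median was -0.07 with 8 rows above 0. Without SI_EE 1, GH_WT 2 and GH_WT 4 and with the other 21 libraries kept, it was -0.40 with 0 rows above 0. Leaving out SI_Con 3 alone gave a median of -0.17. With the length offset it was -0.14.

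Enriched environment in the GH housing gave the largest number of rows with no overlap. In GH_EE against GH_Con 79 of 85 rows were below 0, against 53.6% of all genes, and 6 above, against 46.4%, with a median of -0.20, and of -0.02 for all genes. The libraries did not overlap for 17 rows, all lower in GH_EE, against 4.06% of all genes lower and 4.5% higher. With GH_Con 2 left out they did not overlap for 19 rows lower, the 17 among them, against 5.83% of all genes lower and 5.94% higher. The 17 were Rpl3, Rpl9, Rpl13, Rpl14, Rpl19, Rpl23, Rpl26, Rpl34, Rps2, Rps3a1, Rps4x, Rps6, Rps7, Rps9, Rps12, Rps25 and Rpsa. Rps2 had 124, 110.2, 144 and 153 CPM in GH_EE, against 190.2, 170.4, 181 and 175 CPM in GH_Con, a log2 fold change of -0.43 (SE 0.16, edgeR adjusted p = 0.65). Rpl3 had 309, 308, 287 and 292 CPM in GH_EE, against 372, 392, 322 and 369 CPM in GH_Con (-0.28, SE 0.12). Rps6 had 161, 181, 166 and 178 CPM in GH_EE, against 188, 236, 182 and 196 CPM in GH_Con. At an unadjusted p under 0.05, 4 rows were lower, against 3.7% of all genes, and 0 higher, against 2.62%: besides Rps2 and Rpl3 these were Rps4l (-0.68, SE 0.27) and Rps25 (-0.54, SE 0.24).

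Of the libraries with lower long genes this contrast holds only GH_Con 2. Without GH_Con 2 the median was -0.11, with 13 rows above 0, while Rps2 differed by -0.45 and Rpl3 by -0.24, and with the length offset -0.12. The length correlation overlapped between these groups but was mostly higher in GH_EE: 0.31, 0.10, 0.25 and 0.19 in GH_EE, against 0.11, -0.36, 0.04 and 0.08 in GH_Con. Its part in the lower values was not tested beyond the offset. The rows above 0 included Rpl7l1 (0.21, SE 0.11) and Rps18 (0.15, SE 0.17).

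Both EE contrasts had Rps2 and Rpl3 among the 4 lower rows with the smallest p. Rps2 has 18 copies with a summed mean of 66.8 CPM, against 159.5 CPM for the row itself, so its values are uncertain. The pooled ranges of Rps2 reuse the values by which it was named. Over both housings Rps2 ran from 110.2 to 153 CPM in the 8 EE libraries (median 132), from 128 to 257 CPM in the 8 WT libraries (median 162) and from 128 to 217 CPM in the 8 Con libraries (median 178). In SI_EE against SI_WT Rps2 and Rpl12, a protein at the base of the stalk, were the rows with no overlap, 2 of 85, both lower, against 1.51% of all genes lower and 2.26% higher. Rps2 had a log2 fold change of -0.52 (SE 0.16, edgeR adjusted p = 0.30) there. That contrast had 82 of 85 rows below 0, against 48.8% of all genes, and a median of -0.25, which was -0.02 without SI_WT 4, where Rps2 differed by -0.33 and Rpl12 by -0.21 in place of -0.47. At an unadjusted p under 0.05, 6 rows were lower there, against 3.46% of all genes, and 0 higher, against 6.71%.

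**Figure D5:**
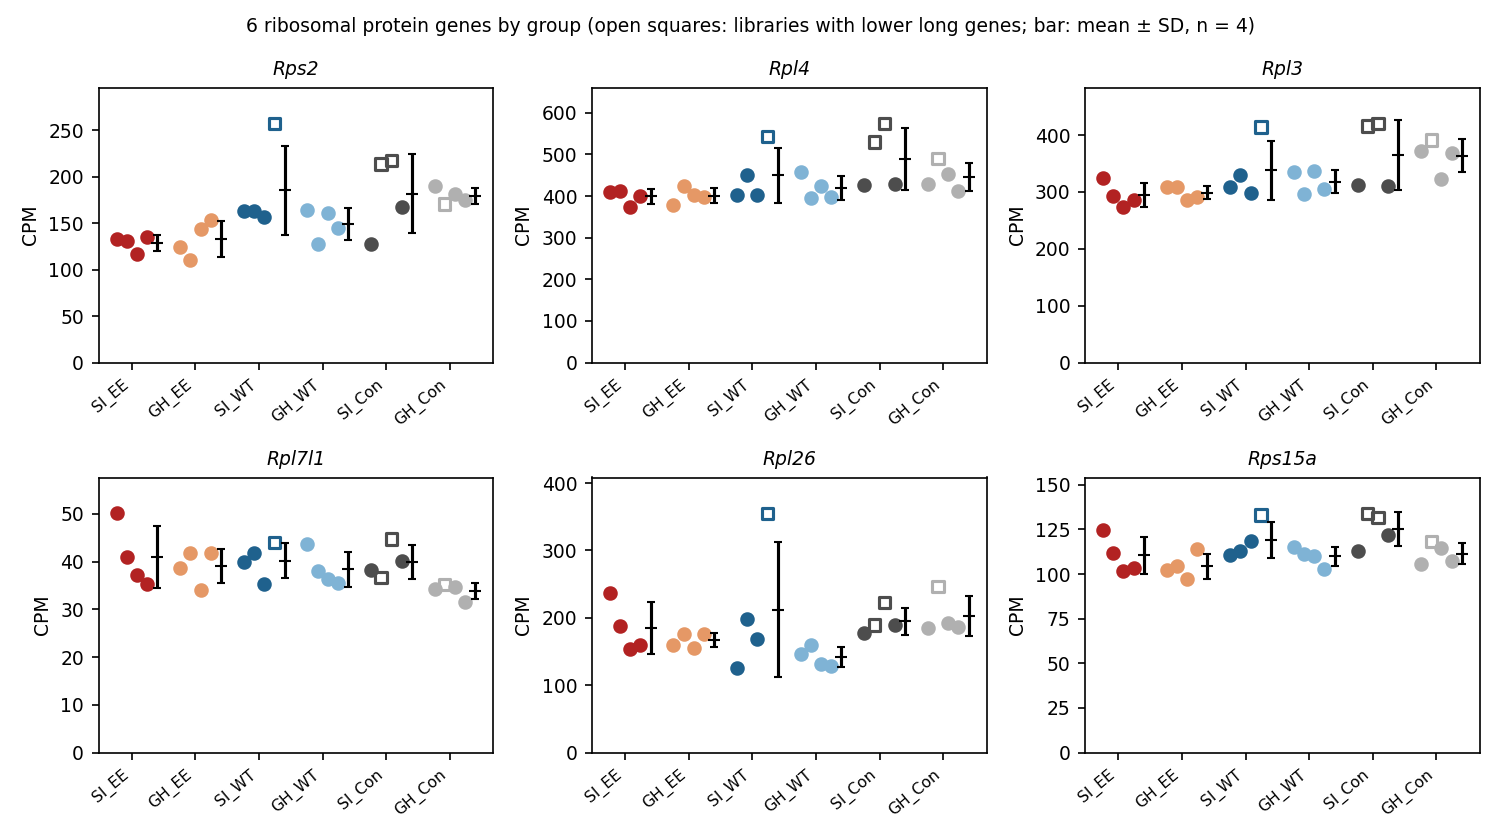
CPM of Rps2, Rpl4, Rpl3, Rpl7l1, Rpl26 and Rps15a in each library by group, with the mean and SD of 4 libraries as a bar. Open squares are the 4 libraries with lower long genes. All 8 EE libraries of Rps2 lie at or below 153 CPM.

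Most rows were slightly higher in isolated than in GH controls. In SI_Con against GH_Con 75 of 85 rows were above 0, against 50.1% of all genes, and 10 below, against 49.9%, with a median of 0.15. Rpl7l1, a paralogue of Rpl7 thought to act in making the large subunit, had 38.2, 36.6, 44.8 and 40.2 CPM in SI_Con, against 34.2, 35.2, 34.6 and 31.5 CPM in GH_Con, a log2 fold change of 0.24 (SE 0.11). It was the only row whose libraries did not overlap, against 1.95% of all genes higher without overlap, and 0 rows were lower, against 2.61%. It was 1 of 2 rows higher at an unadjusted p under 0.05, against 2.97% of all genes, and 0 were lower, against 3.57%. Without SI_Con 3 the median was 0.02, and without the 4 libraries it turned to -0.07, with 21 rows above 0. In that comparison of 2 with 3 libraries, 5 rows were higher without overlap, against 14.4% of all genes, and 26 lower, against 15.5%.

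In the WT arm most rows were higher in isolated mice, and the size rested on SI_WT 4. In SI_WT against GH_WT 82 of 85 rows were above 0, against 49.5% of all genes, and 3 below, against 50.5%, with a median of 0.25. Rpl26, a protein at the tunnel exit, had 125, 199, 169 and 355 CPM in SI_WT, against 147, 160.4, 132 and 129 CPM in GH_WT (0.58, SE 0.21, edgeR adjusted p = 0.78). Without SI_WT 4 its value was 0.22 and the median of all 85 rows 0.02. Rpl21 (0.77, SE 0.33) and the pseudogene row Rps12l1 (0.46, SE 0.22) were the other rows higher at an unadjusted p under 0.05, 3 in all, against 1.76% of all genes, and 0 were lower, against 3.61%. Without SI_WT 4 these differed by 0.22 and 0.12. The libraries overlapped for all 85 rows, against a lack of overlap in 1.36% of all genes higher and 2.24% lower.

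The housings were also compared under enriched environment. In SI_EE against GH_EE 59 of 85 rows were above 0, against 52.9% of all genes, and the median was 0.04, which turned to -0.06 without SI_EE 1. Rps4l had 25.2, 11.2, 9.07 and 11.2 CPM in SI_EE, against 7.11, 9.45, 6.07 and 8.13 CPM in GH_EE (0.88, SE 0.27, edgeR adjusted p = 0.41). SI_EE 1, the library with cerebellar markers, was the high one, and without it the value was 0.45. Rps4l was the only row higher at an unadjusted p under 0.05, against 6.36% of all genes, and 0 rows were lower, against 2.34%. The libraries overlapped for all 85 rows, against a lack of overlap in 2.35% of all genes higher and 2.01% lower. SI_WT against SI_Con had 24 rows above 0, against 48.9% of all genes, 61 below, against 51%, and a median of -0.05, which was -0.28 without SI_WT 4 and 0.08 without SI_Con 3. At an unadjusted p under 0.05, 0 rows were higher, against 1.4% of all genes, and 0 lower, against 2.44%. The libraries overlapped for all 85 rows, against a lack of overlap in 0.796% of all genes higher and 1.31% lower. GH_WT against GH_Con had 77 rows below 0, against 51.4% of all genes, 8 above, against 48.6%, and a median of -0.15, which was -0.05 without GH_Con 2. Without SI_EE 1, GH_WT 2 and GH_WT 4 it was -0.06, with 24 rows above 0. With all 24 libraries, 3 rows were lower in GH_WT against GH_Con at an unadjusted p under 0.05, against 1.64% of all genes. None was higher, against 1.78%. The 3 were Rps27l (-0.60, SE 0.23), Rpl26 (-0.51, SE 0.21) and Rpl11 (-0.42, SE 0.19). Libraries did not overlap for 6 rows lower in GH_WT (Rpl11, Rpl26, Rplp1, Rps2, Rps7 and Rps27l), against 2.02% of all genes, and for Rpl7l1, which was higher, against 2.21%.

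An interaction tested whether the EE or WT arm differed from Con by unlike amounts in the 2 housings. It is the fold change against Con in SI minus that in GH. For EE the median over the rows was -0.09, with 70 rows below 0, against 48.4% of all genes, and for the WT arm 0.11, with 67 rows above 0, against 49.6%, and 0 rows passed an adjusted p of 0.05 (edgeR), against 0% of all genes. The EE value was 0.03 without SI_Con 3, 0.12 without the 4 libraries, 0.03 without the 4 and SI_EE 1, and -0.18 without SI_EE 1, GH_WT 2 and GH_WT 4. The medians over all genes in these fits were 0.03, 0.05, 0.03 and -0.001. The WT value was -0.14 without SI_WT 4 and 0.01 without SI_EE 1, GH_WT 2 and GH_WT 4. At an unadjusted p under 0.05, 1 row was lower in the EE interaction, against 2.58% of all genes, and 0 higher, against 5.16%. In the WT interaction 1 was higher and 1 lower, against 1.86% and 2.66%. Rpl26 had a WT interaction of 0.64 (SE 0.30), and of 0.27 without SI_WT 4. Rps3a3 had one of -0.90 (SE 0.37), with 1.63 ± 0.447 CPM in SI_WT, 2.21 ± 0.508 CPM in GH_WT, 2.28 ± 0.629 CPM in SI_Con and 1.65 ± 0.536 CPM in GH_Con (SD, n = 4 each).

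Rows are grouped next by place or role in the ribosome. The stalk proteins Rplp0, Rplp1 and Rplp2 had log2 fold changes with a median of -0.29 in SI_EE against SI_Con and -0.19 in GH_EE against GH_Con. Rplp1 had 226, 225, 186 and 188 CPM in SI_EE, against 214, 328, 377 and 225 CPM in SI_Con (-0.47, SE 0.20). The 9 rows of the exit tunnel and its rim had medians of -0.29 and -0.18, the 6 along the mRNA channel -0.35 and -0.19, the 5 of the decoding site and beak -0.32 and -0.25, and the 7 paralogues tested, not all of them among the 85 rows (Rpl36al is outside), -0.22 and -0.25. Rpl5 and Rpl11, which with 5S ribosomal RNA bind Mdm2, had medians of -0.09 and -0.17 in the same contrasts. Rpl11 had 163, 128, 120.0 and 117 CPM in SI_EE, against 98.6, 182, 148 and 94.0 CPM in SI_Con, so that the lowest and the highest library were both SI_Con. Of 19 rows whose human orthologues are mutated in Diamond-Blackfan anaemia, among them Rps19, 18 were below 0 in SI_EE against SI_Con (median -0.28) and 19 in GH_EE against GH_Con (median -0.15), beside 83 and 79 of all 85 rows. Rps19 had 103, 84.3, 69.2 and 72.1 CPM in SI_EE, against 75.5, 127, 156 and 82.5 CPM in SI_Con. Rps27a, made as a fusion with ubiquitin, had 81.8, 49.96, 43.3 and 49.8 CPM in SI_EE, against 64.2, 98.4, 102 and 51.8 CPM in SI_Con. The X-linked Rpl10, Rpl36a, Rpl39 and Rps4x had their highest library in SI_WT 4, for the first 3, and in SI_Con 3, for Rps4x.

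Related genes outside the 85 rows were counted from lists of translation and energy genes, and 0 of their members passed an adjusted p of 0.05 in any of the 10 contrasts (edgeR). The medians and counts of these lists are from all 24 libraries, and none are given without the 4 with lower long genes. For the 85 rows, the median of SI_EE against SI_Con was -0.29 with all libraries and 0.01 without those 4. In SI_EE against SI_Con 16 of the 76 oxidative phosphorylation genes were lower at an unadjusted p under 0.05, against 5.56% of all genes, and 0 were higher, against 7.03%. The 17 translation factors with TOP mRNAs had medians of -0.19 in SI_EE against SI_Con and -0.11 in GH_EE against GH_Con. The 33 genes of ribosome biogenesis had -0.06 and 0.02, the 11 of RNA polymerase I -0.03 and 0.06, and the 17 of the mTOR and S6 kinase axis 0.02 and 0.03. At an unadjusted p under 0.05, 2 genes of that axis were higher in SI_EE against SI_Con and 0 lower. These were the S6 kinase family member Rps6ka1 (1.48, SE 0.47), which was at 0.10 without SI_EE 1, and Eif4ebp2, a repressor of cap-dependent translation (0.32, SE 0.13). In GH_EE against GH_Con 1 was higher, Eif4ebp2 (0.39, SE 0.13), against 2.62% of all genes, and 1 lower, its relative Eif4ebp1 (-0.77, SE 0.28), against 3.7%. The 78 genes of the mitochondrial ribosome had medians of -0.15 and -0.05, and the 76 nuclear genes of oxidative phosphorylation, many also short, of -0.25 and -0.06. In SI_Con against GH_Con these last 2 lists had medians of 0.16 and 0.22, beside 0.15 for the ribosomal protein rows.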

How the data were processed

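RNA-seq libraries of mouse medial prefrontal cortex (24, in 6 groups of 4) were read from a table of raw counts per gene, deposited by the authors with no normalization. Alignment was to mm10 per the submitters' processing notes, while the aligner, the counter and its rule for multiply placed or antisense reads were not given in the sources used here. Symbols were matched for 91.8% of 56750 rows, and rows without a symbol held 0.695% of reads. Members and lists were chosen with earlier results of these data known. CPM values were scaled by TMM factors. edgeR 4.0.16 (quasi-likelihood, R 4.3.3) was fitted to all 24 libraries with 6 group means after its expression filter, with Benjamini-Hochberg adjustment over 20354 genes and a threshold of 0.05. Same-numbered libraries were checked for pairing, and the numbers were not used as a block. Alternatives were DESeq2 1.42.0, limma-voom 3.58.1, other size factors, no filter, the compared groups alone, a replicate block, libraries left out, and a transcript length offset (lowess span 0.3). Leaving out SI_EE 1 together with the 4 libraries with lower long genes, and the overlap counts and shares without those 4, were chosen after seeing the data. The fit was tested on simulated counts for SI_Con against GH_Con. It called 56 of 100 genes changed 2-fold and 15 of 100 changed 1.5-fold, with 0 false calls. Changes of these sizes or smaller can thus go uncalled. The changed genes were drawn at random from the tested genes with higher counts, not from the 85 rows. Shifts shared by many genes, such as that with transcript length, were not simulated, so the false calls they may give were not tested. Named rows were the 4 with the smallest p in each direction per contrast, rows with fixed roles, and the widest, narrowest, highest and lowest rows. Other rows were named after their values were seen, and some rows and 1 list are not reported here. Copies were pseudogenes sharing at least 100 stretches of 50 bases with a member (GENCODE M21), and promoter letters came from RefSeq (GRCm38.p6). Counting intervals are exact (Clopper-Pearson), and the limit for a count of 0 is 3 counts. Python 3.11.15, NumPy 2.4.6, SciPy 1.17.1, pandas 2.3.3 and matplotlib 3.10.9 were used.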

Additional observations from a re-analysis of the deposited data

Results flagged for a closer look

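In each group of 4 libraries a value was picked out where the highest or lowest library stood far from the others (Dixon's test). Chance flags about 1 in 20 groups, and 16 of 150 were picked out. The rows move together and Rpl29 was included for its wide range, so these figures cannot show an excess. In GH_Con 2, a library with lower long genes, these were the share of reads (1.31%), Rplp0 (197 CPM), Rplp1 (313 CPM), Rplp2 (94.7 CPM) and Rps19 (120.0 CPM). In SI_WT 4, another such library, they were the share of reads (1.70%), Rps19 (163.5 CPM), Rpl36a (76.3 CPM) and Rpl39 (81.5 CPM). All 9 of these were the highest of their group.

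In SI_EE 1, the library with cerebellar markers, Rpl22l1 (48.3 CPM) and Rps27l (10.3 CPM) were the highest of the group. Rpl22l1 in GH_WT 1 (36.2 CPM), Rplp2 in GH_EE 2 (84.8 CPM) and Rps4l in GH_WT 2 (11.8 CPM) were single high values. Rpl29 was picked out as low in SI_EE 3 (0.979 CPM) and GH_Con 3 (1.34 CPM).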

How the results depend on the processing

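No ribosomal protein row was called in any of the 10 contrasts under any alternative run, DESeq2 and limma-voom included. Of the main results, 449 values under alternatives kept their direction or stayed within the spread between replicates, and 2 moved beyond it: the median of SI_EE against SI_Con, 0.0078 without the 4 libraries with lower long genes, and that of the WT by housing interaction, -0.14 without SI_WT 4. A median could change sign within that spread and not be counted as moved. Without the 4 libraries SI_Con against GH_Con went from 0.15 to -0.07, and the EE by housing interaction from -0.09 to 0.12. SI_WT against SI_Con went from -0.05 to 0.08 without SI_Con 3, and SI_EE against GH_EE from 0.04 to -0.06 without SI_EE 1. All 456 values of single named rows kept their sign. Medians with 1 library left out ran from -0.39 to -0.17 in SI_EE against SI_Con and from -0.14 to 0.24 in the WT by housing interaction. The cause was not tested.

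With the replicate number as a block, 0 rows were called in each contrast, and the median of SI_EE against SI_Con was -0.29 and that of GH_EE against GH_Con -0.20. Same-numbered libraries did not pair: their correlations ran from -0.28 to 0.18, and 0 to 2 of 4 libraries matched their own number best.

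Depth was not the limit for abundant rows. With 4 libraries a group, spread between libraries set the precision, and rows with near-identical copies are uncertain.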
